A study of Homo sapiens with 8 samples.

Results

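17β-HSD1 siRNA was compared with control siRNA in T47D cells, an established estrogen receptor-positive line of luminal breast cancer cells, in 2 media. All 8 arrays of the series entered the comparison, 4 with each siRNA. Each gene was read from 1 Affymetrix Human Gene 1.0 ST probe set, which samples the whole transcript. Probe sets with exactly 1 symbol were taken, and a gene with several was represented by its brightest, the 1 of highest mean. This left 18417 genes of a table of 33297 probe sets.

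The 4 groups were control siRNA and 17β-HSD1 siRNA, each with vehicle and each with estradiol (E2). Every group was steroid-deprived for 2 days in charcoal-treated serum and then transfected with 200 nM siRNA, either a mixture of 3 siRNAs against 17β-HSD1 or a scrambled sequence. After 48 h the medium was replaced by one with 1 nM E2 or with ethanol, for 2 more days. Each group had 2 arrays from 2 independent cell culture experiments, so the p-values measure the spread between 2 cultures of 1 cell line. One siRNA mixture and 1 scrambled control were used. What belongs to the siRNA sequences and what to any loss of the enzyme, which arrays of RNA do not measure, thus cannot be told apart.

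17β-HSD1, encoded by HSD17B1, reduces estrone to estradiol, the hormone that drives division of these cells. Cells that sense double-stranded or foreign RNA through TLR3, MDA5, RIG-I or the OAS enzymes can switch on interferon genes. Interferon acts through JAK kinases and the STAT and IRF9 factors on the interferon-stimulated response element (ISRE) in the promoters of its target genes. Genes of G2 phase and mitosis share other promoter elements, the CCAAT box and the cell cycle genes homology region (CHR), and many genes of DNA replication carry E2F sites.

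Signals are deposited log2 values, and a change is the mean of the 17β-HSD1 siRNA groups minus the mean of the control siRNA groups on that scale, with its SE from limma, over 4 arrays against 4. A gene is said to have risen or fallen where its Benjamini-Hochberg adjusted p, taken over 21214 probe sets, was below 0.05. By this rule 38 genes rose, 0.206% of those measured, and 44 fell, 0.239%. With the culture experiment as a block 131 rose and 123 fell (0.711% and 0.668%), and these included all 82. This block takes the replicate number as the culture experiment, which the labels do not state outright. With the numbers of control siRNA, vehicle swapped, it called 75 probe sets higher and 95 lower, against 154 and 131. No gene was called without replicate 1 or without replicate 2 of 17β-HSD1 siRNA with E2, and 21 of the 82 were still called without control siRNA, vehicle replicate 1. In a fit of all 33297 probe sets, unnamed ones included, none was called, with a lowest limma adjusted p of 0.0734 and 2525 unadjusted p-values below 0.05. After a further quantile normalization 46 of the 82 were still called. These were 22 of the 38 and 24 of the 44, with 8 interferon-stimulated effectors and 2 G2 and mitotic regulators among them, and no double-stranded RNA sensor, apolipoprotein L, chemokine, deoxynucleotide synthesis, p53, solute carrier, estrogen-induced or WNT gene was called. In both media, each on its own, both knockdown arrays lay above both control arrays for all 38 genes that rose and below them for all 44 that fell. Over all genes this held for 4.63% on the upper side and 6.21% on the lower side. Across the media, all 4 knockdown arrays lay above all 4 controls for 35 of the 38 (2.12% of all genes) and below them for 20 of the 44 (2.17% of all genes). The genes were called from these same values, so neither separation is separate support for the calls.

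Letters of the ISRE core stood shortly upstream of the start of several genes that rose, and are shown because this core is counted below in each group of genes. The stretches are from RefSeq promoters on GRCh38.p14, written 5′ to 3′ on the strand of the gene, with the ISRE core in capitals. The core searched was a pair of GAAA runs parted by any 2 bases, on either strand, so it can also read as a pair of TTTC runs, and overlapping matches are joined.
IFI44L (chr1:78620353-78620406, plus strand): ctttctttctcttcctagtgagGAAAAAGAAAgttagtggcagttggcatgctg
IFIT3 (chr10:89332456-89332509, plus strand): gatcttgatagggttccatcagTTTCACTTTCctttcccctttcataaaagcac
RSAD2 (chr2:6877610-6877663, plus strand): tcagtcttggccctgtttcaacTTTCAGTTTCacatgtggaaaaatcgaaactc
IFITM3 (chr11:320864-320917, minus strand): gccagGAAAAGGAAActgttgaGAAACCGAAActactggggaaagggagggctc
IFITM1 (chr11:313978-314031, plus strand): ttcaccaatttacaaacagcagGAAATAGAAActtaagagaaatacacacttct
LGALS3BP (chr17:78979950-78980003, minus strand): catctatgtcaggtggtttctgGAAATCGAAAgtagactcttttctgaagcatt
TAP1 (chr6:32853801-32853854, minus strand): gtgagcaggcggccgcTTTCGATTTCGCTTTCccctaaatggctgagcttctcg

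Among the genes that fell, the CHR letters TTTGAA, searched on either strand, stood in the same part of the promoter of a mitotic kinesin gene and of the gene for an activator of the anaphase-promoting complex. They are shown in capitals, from the same build.
KIF23 (chr15:69414272-69414321, plus strand): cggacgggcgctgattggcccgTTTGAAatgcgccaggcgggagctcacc
CDC20 (chr1:43358894-43358943, plus strand): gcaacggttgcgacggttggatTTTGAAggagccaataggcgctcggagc

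A promoter window, from 250 bases before the start of a gene to 50 after it, was at hand for 14239 of the 18417 genes. The ISRE core stood in 4.12% of all of them, in 13 of 28 (46.4%) of the genes that rose and in 3 of 37 (8.11%) of those that fell. It stood in 29 of 40 (72.5%) of the interferon-stimulated effectors and in 10 of 16 (62.5%) of the class I antigen presentation genes. Of the double-stranded RNA sensors and their adaptors 6 of 16 (37.5%) held it. The CHR letters stood in 15.7% of all windows, in 15 of 23 (65.2%) of the G2 and mitotic regulators and in 12 of 37 (32.4%) of the genes that fell. The E2F letters TTTNGCGC stood in 2.96% of all windows and in 17 of 46 (37.0%) of the origin licensing and replication fork genes. Among the genes that fell they stood in 2 of 37 (5.41%). In the 250 bases upstream alone, the ISRE core stood in 35.7% of the genes that rose against 3.53% of all. There the CHR letters stood in 7 of 37 (18.9%) of the genes that fell and in 56.5% of the G2 and mitotic regulators, against 14% of all. The E2F letters stood there in 23.9% of the replication genes and 2.7% of the genes that fell, against 2.49% of all. A match is a run of letters and not a measured site.

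**Figure D1:**
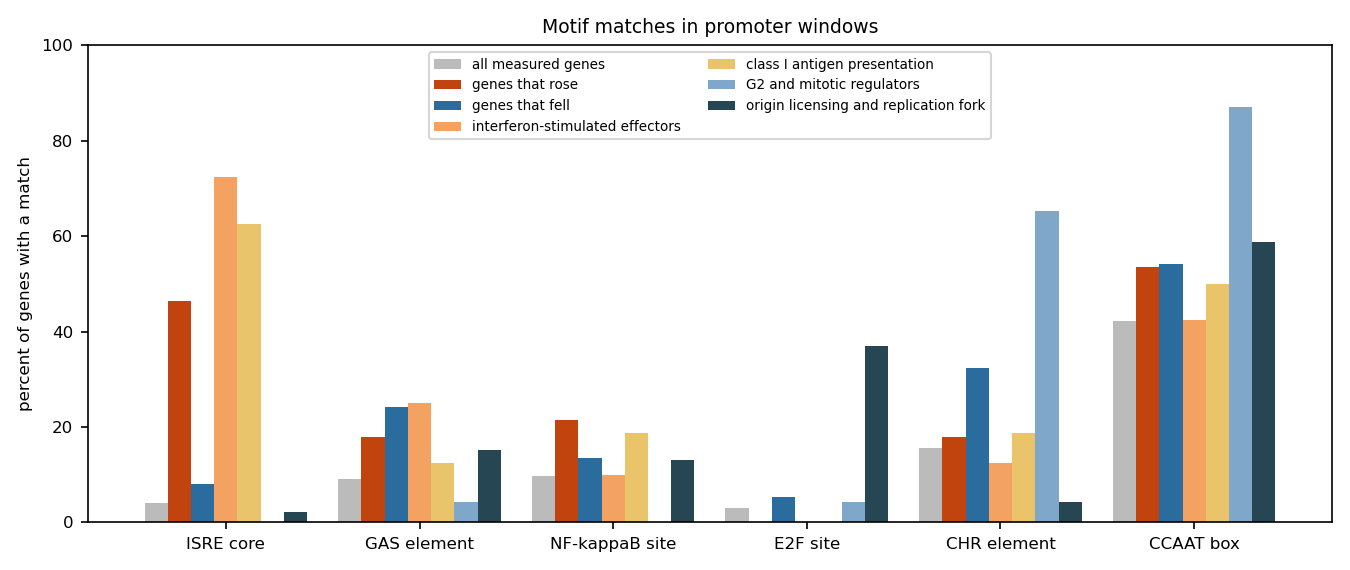
Percent of genes with a match to each of 6 short motifs in the promoter window, for all measured genes, the genes that rose or fell and 4 gene lists; bars start at 0. The ISRE core stood in 72.5% of interferon-stimulated effectors against 4.12% of all genes, and the CHR element in 65.2% of G2 and mitotic regulators against 15.7%.

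HSD17B1 itself did not pass the threshold. Its control signals were 9.35 and 8.66 (vehicle) and 9.12 and 8.56 (E2), and its knockdown signals were 8.41 and 8.36 (vehicle) and 8.32 and 8.37 (E2). All 4 knockdown arrays lay close together and below all 4 control arrays, as for 2.17% of all genes, and the control arrays spread over a wider range. The change was -0.56 ± 0.16 (limma adjusted p = 0.221, 0.0827 with the culture block). None of the 11 measured members of the 17β-hydroxysteroid dehydrogenase family was called, and the other 10 lay between -0.32 for HSD17B6 and 0.18 for HSD17B3.

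Of the 38 genes that rose, 26 belong to lists of interferon-response, antigen presentation, butyrophilin, apolipoprotein L, chemokine and cell death genes. These lists were chosen with earlier results of these data known. The share of all genes in them was not counted, so the 26 stand without a background. They are taken below in the order of the interferon pathway, from the sensing of RNA, though RNA levels do not show the order of events. Of 23 measured double-stranded RNA sensors and adaptors 2 rose, or 10 with the culture block, and the median change was 0.42 against 0.01 over all genes. OASL, which enhances RIG-I signalling, had signals of 8.08 and 8.26 (vehicle) and 7.91 and 8.89 (E2) with control siRNA, and 9.02, 10.16 (vehicle), 9.76 and 9.95 (E2) with 17β-HSD1 siRNA. TLR3, the endosomal receptor for double-stranded RNA, lay between 6.32 and 6.55 in the control arrays and was 6.90, 7.59, 7.20 and 7.34 in the knockdown arrays. For both genes the siRNA groups did not overlap, and the changes were 1.44 ± 0.25 and 0.84 ± 0.15. The helicase gene ZNFX1 stood at 0.81 ± 0.15 (adjusted p = 0.0534). The cytosolic sensors IFIH1 (1.10 ± 0.25), RIGI (1.23 ± 0.35) and DHX58 (0.92 ± 0.20) and the enzyme genes OAS1 (1.06 ± 0.25), OAS2 (1.40 ± 0.31) and OAS3 (1.09 ± 0.25) did not pass, at adjusted p of 0.0868 to 0.193, and each passed with the block. All of these 6 but DHX58, and EIF2AK2, were picked with their values known. EIF2AK2, the gene of the RNA-activated kinase PKR, stood at 0.42 ± 0.18 (adjusted p = 0.489). In 12 of the 23 both knockdown arrays lay above both controls in each medium, and in none below, against 4.63% and 6.21% over all genes.

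The next step is the interferon genes. None of 16 measured was called, with a median of 0.06. Most were dim, with a median signal of 5.11 against 7.66 over all genes. With probe sets under the 25th percentile of signal left out, 3 of the 16 remained, none called, with a median of 0.54. The 0.06 thus mostly describes dim probe sets. The type III genes IFNL1, IFNL2 and IFNL3 and the type I gene IFNB1 were the 4 with the smallest p. IFNL1 had control signals of 7.80, 7.77, 7.70 and 7.75 and knockdown signals of 8.05, 8.35, 8.20 and 8.31. Its arrays did not overlap between the siRNAs, with a change of 0.47 ± 0.11 and an adjusted p of 0.0961. IFNB1 ran from 5.17 to 5.41 in the controls and from 5.54 to 6.17 in the knockdown arrays (0.53 ± 0.14, adjusted p = 0.163), again with no overlap. Over all genes 2.12% had all 4 knockdown arrays above all 4 controls. IFNL2 (0.64 ± 0.14) and IFNL3 (0.54 ± 0.14), which are near copies whose probe sets may share signal, passed with the block.

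Receptor and signalling genes gave no call. None of 20 genes of the interferon receptors, the JAK and STAT proteins and the IRF factors was called, with or without the block, and their median was 0.07. The largest of the 4 with the smallest p were STAT3 (0.50 ± 0.13, adjusted p = 0.144), a STAT factor of cytokine signalling, and IRF9 (0.44 ± 0.11, adjusted p = 0.154), the DNA-binding partner in the ISRE-binding complex. IRF9 had signals of 9.33, 9.26, 9.08 and 9.28 in the controls and 9.62, 9.82, 9.79 and 9.49 in the knockdown arrays. These did not overlap, as for 2.12% of all genes on the upper side.

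Effectors that interferon induces come next in the pathway. Of 50 measured interferon-stimulated effectors 12 rose and 0 fell, or 39 and 0 with the culture block, and 49 of 50 changes were positive. Their median was 0.91, with 0.91 in vehicle and 0.88 in E2. IFI44L, an interferon-induced gene of unsettled biochemical role, had control signals of 5.97 and 6.35 (vehicle) and 5.73 and 7.67 (E2), and knockdown signals of 8.62 and 9.15 (vehicle) and 9.52 and 9.53 (E2). IFIT3, whose product joins the IFIT complex on viral RNA, had 7.04 and 7.64 (vehicle) and 7.0 and 8.86 (E2) in the controls, and 9.12, 10.06 (vehicle), 9.59 and 10.34 (E2) in the knockdown. In both genes replicate 2 of control siRNA with E2 was the highest control by more than 1 log2 unit, and for IFIT3 it lay just under the lowest knockdown array.

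The same array stood high over the whole group. Taken as the mean over the 50 members, each centred on its own mean, the effectors stood at -0.70 and -0.48 in control siRNA with vehicle and at -0.80 and 0.07 in control siRNA with E2. In the knockdown arrays they stood at 0.10 and 0.62 in vehicle and at 0.52 and 0.68 in E2. Control siRNA, E2 replicate 2 was thus next to 17β-HSD1 siRNA, vehicle replicate 1, and the groups were far apart otherwise. Without that control array the median change of the list was 1.17, and over all arrays left out singly it ran from 0.61 to 1.17. In each medium both knockdown arrays lay above both controls for 43 of the 50 members, and below them for 0, against 4.63% and 6.21% over all genes.

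The other effectors that rose include genes of viral defence and genes of other or unsettled roles. RSAD2, the gene of viperin, a maker of chain-terminating nucleotides, had 6.53, 7.14, 6.42 and 7.97 in the controls and 8.18, 9.44, 8.97 and 9.37 in the knockdown arrays. IFITM3, which blocks the fusion of viruses in endosomes, had 8.73, 8.37, 8.34 and 9.0 in the controls and 9.52, 10.01, 10.11 and 10.02 in the knockdown. IFITM1, its relative at the cell surface, ran from 9.82 to 10.67 and from 10.91 to 11.67. None of the 3 overlapped between the siRNAs, but the IFITM genes are close copies and their probe sets may share signal.
XAF1, an interferon-induced gene that can promote cell death, rose by 1.62 ± 0.26, and PLAAT4, a phospholipase and growth suppressor gene, by 1.38 ± 0.19. HCP5, a long non-coding RNA gene of the HLA locus, rose by 1.51 ± 0.22 and TRANK1 by 1.54 ± 0.24. LGALS3BP, a secreted glycoprotein gene, rose by 1.13 ± 0.14, RTP4, a receptor transporter gene, by 1.05 ± 0.15 and IFI27 by 0.99 ± 0.18, all by limma with adjusted p from 0.0104 to 0.0371. The bright effector genes MX1 (0.96 ± 0.23, adjusted p = 0.114), IFIT1 (1.58 ± 0.36, adjusted p = 0.102) and IFI6 (0.67 ± 0.19, adjusted p = 0.206), which were picked with their values known, were not called. In these the E2 replicate 2 control overlapped the knockdown arrays.

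ISG15 is a ubiquitin-like protein that enzymes attach to other proteins in virus-infected cells. Of 7 members of the ISG15 conjugation list 2 rose, or 6 with the block. All 7 had positive changes, with a median of 0.82. In all 7 both knockdown arrays lay above both controls in each medium, against 4.63% over all genes. The activating enzyme gene UBA7 (7.49, 7.67, 7.45 and 7.91 in the controls, 8.25, 8.70, 8.59 and 8.48 in the knockdown) rose by 0.87 ± 0.14. The conjugating enzyme gene UBE2L6 (8.86, 9.08, 8.93 and 9.34, then 9.69, 10.01, 9.83 and 9.95) rose by 0.82 ± 0.13. Neither gene overlapped between the siRNAs. The ligase genes HERC5 (1.14 ± 0.24) and HERC6 (1.16 ± 0.25), the protease gene USP18 (0.76 ± 0.15) and ISG15 (0.61 ± 0.15) passed with the block alone, and TRIM25 stood at 0.31 ± 0.10 (adjusted p = 0.276).

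Class I molecules show fragments of a cell's proteins to T cells. Of 17 measured class I antigen presentation genes 4 rose, or 6 with the block, with a median of 0.34. PSMB9, a subunit of the immunoproteasome that cuts proteins into peptides, had 8.88, 9.06, 8.64 and 9.38 in the controls and 9.75, 10.46, 10.47 and 10.19 in the knockdown. TAP1, which carries the peptides into the endoplasmic reticulum, had 9.92, 10.10, 9.82 and 10.49 and then 10.92, 11.29, 11.27 and 11.19. ERAP1, which trims them there, ran from 7.81 to 8.45 and from 8.92 to 9.41. B2M, the light chain of the class I molecule, ran from 11.25 to 11.84 and from 12.30 to 12.75. All 4 were clear of overlap, and their changes were 1.23 ± 0.19, 1.09 ± 0.15, 0.94 ± 0.17 and 0.94 ± 0.15. HLA-L, a class I pseudogene, rose by 0.74 ± 0.12. The partner genes TAP2 (0.34 ± 0.12), TAPBP (0.16 ± 0.12) and the class I transactivator gene NLRC5 (0.41 ± 0.10), all picked with their values known, were not called. The classical class I heavy chain genes were not analysed here. None of 11 class II genes was called, and CIITA, their transactivator gene, stood at 0.09 ± 0.12.

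Several families linked to interferon were split. Among 9 butyrophilins, membrane proteins of the immunoglobulin superfamily, all 3 BTN3A genes, which γδ T cells recognise, rose. BTN3A2 had 6.44, 7.11, 6.34 and 7.24 in the controls and 8.04, 8.74, 8.26 and 8.45 in the knockdown arrays, with no overlap. BTN3A2, BTN3A1 and BTN3A3 changed by 1.59 ± 0.22, 1.39 ± 0.20 and 1.36 ± 0.21, though as near copies their probe sets may share signal. The other 6 members lay between -0.07 for BTN2A1 and 0.11 for BTNL3. Among 6 apolipoprotein L genes APOL1, a trypanosome-killing factor, rose by 1.19 ± 0.21, from 6.52, 7.20, 6.69 and 7.22 to 7.69, 8.43, 7.89 and 8.37. The others were APOL6 at 0.66 ± 0.15, APOL2 at 0.44 ± 0.14, APOL4 at 0.15, APOL3 at 0.14 and APOL5 at 0.03.

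Larger families gave few or no calls. None of 54 tripartite motif genes was called, and 3 were with the block: TRIM22 (1.38 ± 0.28), TRIM5 (0.64 ± 0.14) and TRIM21 (0.70 ± 0.19), all of which restrict viruses. None of 13 PARP genes was called, and the 3 called with the block were PARP14 (1.35 ± 0.26), PARP9 (1.04 ± 0.26) and PARP12 (0.53 ± 0.13). Of 6 guanylate-binding proteins, which are typical targets of type II interferon, none was called, with GBP4, called with the block alone, at 0.56 ± 0.14 and the other 5 between -0.06 and 0.20. None of 6 Schlafen or 6 APOBEC3 genes was called, and APOBEC3B, a DNA cytosine deaminase gene, stood at -0.48 ± 0.13 and was called lower with the block.

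Outside the cell, CCL5, a chemokine that draws T cells, was the only 1 of 37 chemokine genes to rise, by 1.72 ± 0.31. Its signals were 7.50, 8.30, 7.67 and 8.56 in the controls and 8.90, 10.38, 9.65 and 10.00 in the knockdown arrays. CXCL10 and CXCL11, which are also interferon targets, stood at 0.46 ± 0.14 and 0.52 ± 0.18 and did not pass. Of 29 cell death genes CASP4, an inflammatory caspase gene, rose by 0.76 ± 0.12, and TNFSF10, the gene of the death ligand TRAIL, stood at 0.92 ± 0.18 (adjusted p = 0.0571). SLC15A3, a lysosomal transporter of peptides and histidine, was the only 1 of 359 solute carrier genes called and rose by 0.83 ± 0.15. That is 0.279% of the family, near the 0.206% of all genes that rose. None of 14 complement genes was called.

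**Figure D2:**
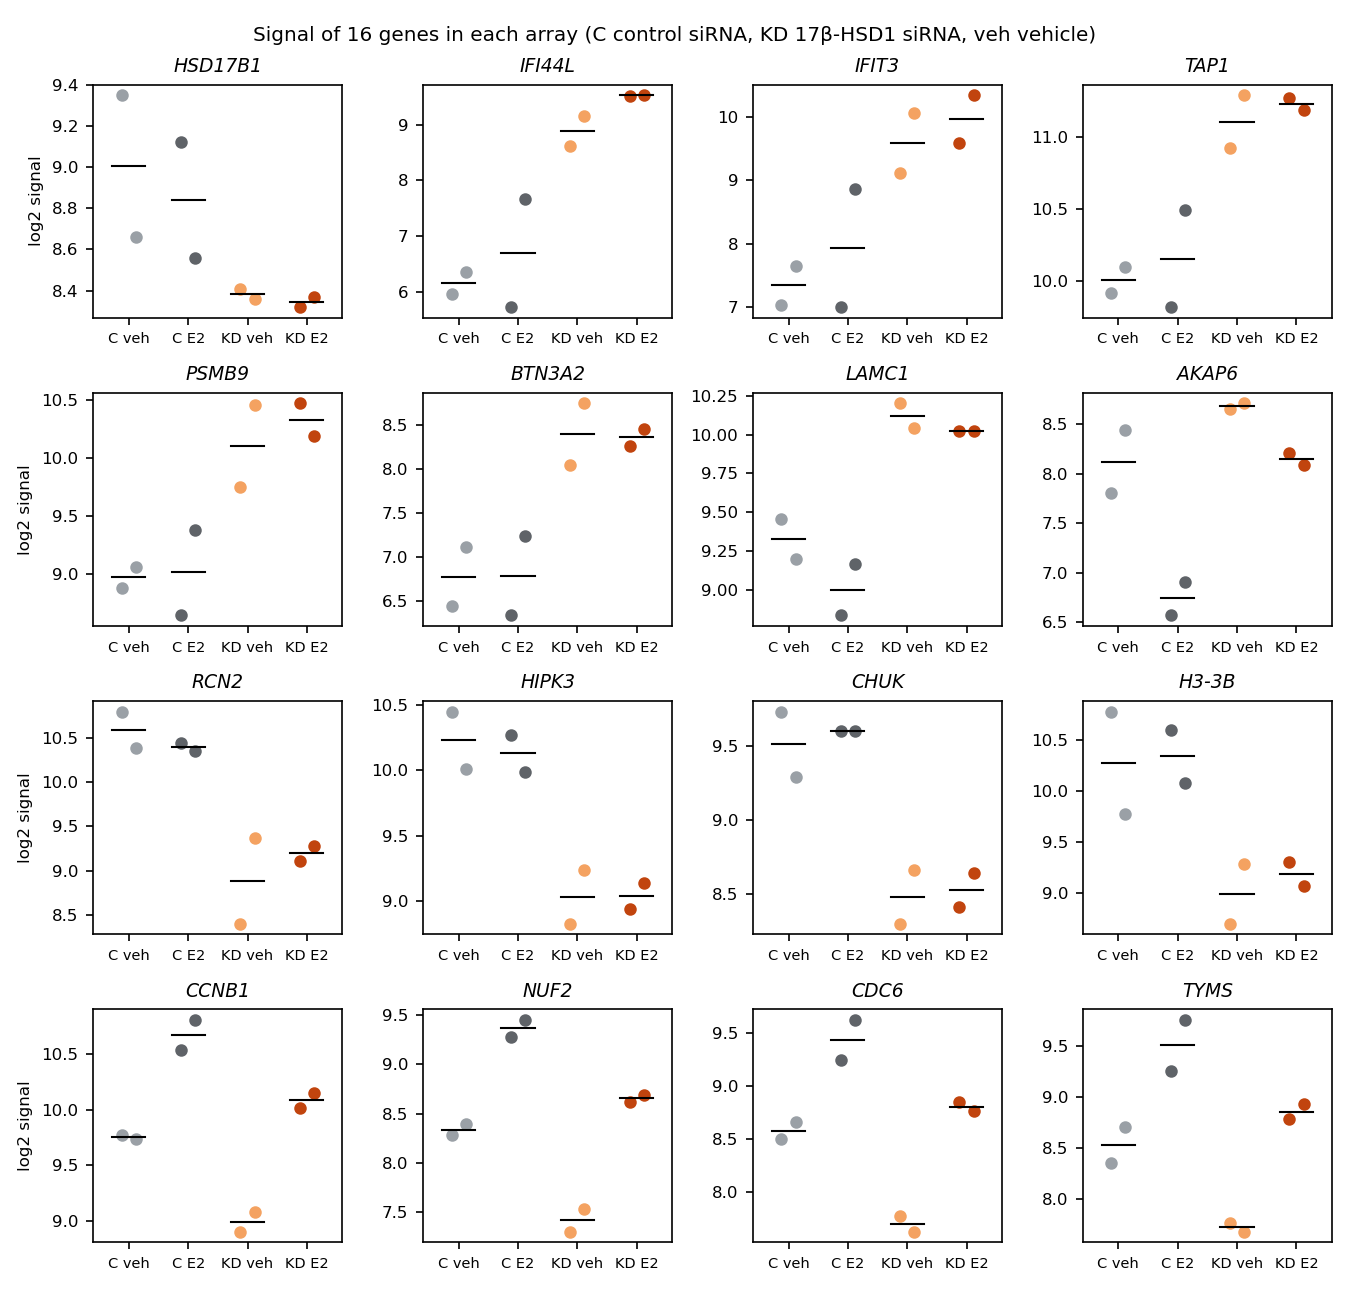
Log2 signal of 16 genes in each array; each point is 1 array, the line is the mean of the 2 arrays of a group, and the vertical axes differ. IFI44L lies from 8.62 to 9.53 in the knockdown arrays against 5.73 to 7.67 in the controls, RCN2 from 8.40 to 9.37 against 10.35 to 10.80, and CCNB1 is lower with 17β-HSD1 siRNA within each medium while E2 groups stand above vehicle groups.

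Of the 44 genes that fell, 24 belong to lists of cell division, DNA repair, histone and p53 genes. These lists too were chosen with earlier results known, and their share of all genes was not counted. The mean level of G2 and mitotic regulators, centred on each gene, was -0.21 and -0.08 in control siRNA with vehicle and 0.52 and 0.73 in control siRNA with E2. In the knockdown arrays it stood at -0.64 and -0.66 without E2 and at 0.15 and 0.18 with it, lower than the controls of the same medium but, in E2, above the vehicle controls. In RNA of whole cultures, fewer dividing cells and less RNA of a gene per cell cannot be told apart. Of 32 G2 and mitotic regulators 6 fell, or 15 with the culture block, and 31 of 32 changes were negative. Their median was -0.51, with -0.52 in vehicle and -0.49 in E2. In 26 of the 32 both knockdown arrays lay below both controls in each medium, against 6.21% over all genes.

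CCNB1, the cyclin that drives entry into mitosis, had 9.77 and 9.74 (vehicle) and 10.54 and 10.81 (E2) with control siRNA, and 8.90, 9.08 (vehicle), 10.02 and 10.15 (E2) with 17β-HSD1 siRNA. CCNA2, the cyclin of S and G2 phase, had 8.91 and 9.08 (vehicle) and 9.90 and 10.07 (E2), then 8.47, 8.05 (vehicle), 9.33 and 9.28 (E2). PBK, a mitotic kinase gene, had 8.26 and 8.40 (vehicle) and 9.45 and 9.75 (E2), then 7.15, 7.64 (vehicle), 8.84 and 8.86 (E2). In each of the 3 the siRNA groups were apart within a medium and overlapped across media. The kinase gene MELK fell by 0.66 ± 0.11, the spindle checkpoint kinase gene TTK by 0.71 ± 0.13 and CDC20, target of that checkpoint, by 0.57 ± 0.11. CDK1, the kinase that CCNB1 activates, stood at -0.83 ± 0.16 (adjusted p = 0.0546), AURKA at -0.61 ± 0.12 and TPX2, which activates AURKA on the spindle, at -0.64 ± 0.12 (adjusted p = 0.0534 for both). CDK1, AURKA and TPX2, picked with their values known, passed with the block.

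Kinetochores and kinesin motors move chromosomes. Of 36 kinetochore and centromere genes 2 fell, or 5 with the block, with a median of -0.30. NUF2, part of the complex that grips microtubules, had 8.28 and 8.39 (vehicle) and 9.28 and 9.45 (E2) in the controls, and 7.30, 7.53 (vehicle), 8.62 and 8.69 (E2) in the knockdown. It fell by 0.81 ± 0.11, and SKA3, of the complex that keeps hold of shrinking microtubules, fell by 0.63 ± 0.10. Of 41 kinesin motor genes 4 fell: KIF20A (-0.76 ± 0.13) and KIF23 (-0.66 ± 0.10), of the cleavage furrow, KIF2C (-0.64 ± 0.11), a microtubule depolymerase, and KIFC1 (-0.61 ± 0.10), which bundles spindle poles. The median of all 41, many of which carry cargo outside mitosis, was -0.04. The 14 cytokinesis genes, which include KIF20A and KIF23, had a median of -0.51 and no positive change, and 6 of them fell with the block.
ESCO2, which acetylates cohesin to hold sister chromatids together, was the only 1 of 16 cohesin genes called and fell by 0.84 ± 0.13. It had 7.04 and 7.03 (vehicle) and 7.57 and 7.96 (E2) in the controls, then 6.29, 6.20 (vehicle), 6.66 and 7.08 (E2). None of 8 condensin genes, which compact chromosomes, was called, with values from -0.70 ± 0.15 for NCAPG through -0.44 ± 0.11 for SMC4, -0.43 ± 0.11 for SMC2, -0.46 ± 0.13 for NCAPG2 and -0.40 ± 0.12 for NCAPH to -0.22 for NCAPD3, -0.17 for NCAPD2 and -0.01 for NCAPH2. Among tubulins TUBA1A alone of 20 fell, from 10.54, 10.39, 10.45 and 10.61 to 9.36, 9.63, 9.98 and 9.88, a change of -0.78 ± 0.11 with no overlap.

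DNA replication begins with the licensing of origins. Of 52 origin licensing and replication fork genes 2 fell, or 4 with the block, with a median of -0.27. In 27 both knockdown arrays lay below both controls in each medium, against 6.21% over all genes. CDC6, which helps load the replicative helicase, had 8.5 and 8.66 (vehicle) and 9.24 and 9.62 (E2), then 7.78, 7.63 (vehicle), 8.85 and 8.76 (E2). POLE3, a histone-fold subunit of DNA polymerase ε, had 9.05, 8.82, 9.54 and 9.40 in the controls and 8.04, 8.23, 8.48 and 8.33 in the knockdown arrays. POLE3 thus did not overlap even across media, and it fell by 0.93 ± 0.11. Of its complex, POLE2 stood at -0.58 ± 0.12 (adjusted p = 0.086), POLE4, its histone-fold partner, at -0.23 ± 0.11, the catalytic subunit gene POLE at -0.02 ± 0.10, and CHRAC1, its partner in chromatin remodelling, at -0.10 ± 0.10.
All 18 genes of deoxynucleotide synthesis had negative changes, with a median of -0.28, and 1 fell, or 3 with the block. TYMS, which makes thymidylate, fell by 0.73 ± 0.13, from 8.36 and 8.71 (vehicle) and 9.26 and 9.76 (E2) to 7.77, 7.68 (vehicle), 8.79 and 8.93 (E2). The ribonucleotide reductase genes RRM1 (-0.53 ± 0.11) and RRM2 (-0.68 ± 0.14) and the thymidine kinase gene TK1 (-0.55 ± 0.12) did not pass, at adjusted p of 0.0652, 0.0773 and 0.0928.

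Genes of the switch into S phase gave no call. None of 30 genes of the G1 cyclins, E2F and RB factors was called, with a median of -0.15. CCNE2, the cyclin of the start of S phase, stood at -0.66 ± 0.15 (adjusted p = 0.107), and E2F1 and CDKN1A, named after their values were seen, at -0.01 ± 0.11 and -0.06 ± 0.12. Of 25 p53 targets TP53I3, an oxidoreductase gene, fell by 0.92 ± 0.15, and the rest were not called. None of 33 homologous recombination and Fanconi anaemia genes was called, with CHEK1 at -0.51 ± 0.10 (adjusted p = 0.0723), and of 21 mismatch and base excision repair genes NEIL3, a DNA glycosylase gene, fell by 0.62 ± 0.11.

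Histone genes divide into those copied with DNA and those made throughout the cell cycle. Of 57 replication-dependent histone genes 3 fell, H4C2, H4C3 and H4C4, or 8 with the block, and 50 changes were negative, with a median of -0.26. H4C4 had 8.29 and 8.52 (vehicle) and 9.0 and 8.88 (E2) in the controls, then 7.16, 7.73 (vehicle), 8.45 and 8.40 (E2). Of 10 variants outside S phase, H3-3B, its near copy H3-5 and H2AZ1 fell. H3-3B, an H3.3 gene, had 10.78, 9.78, 10.60 and 10.08 in the controls and 8.70, 9.28, 9.30 and 9.07 in the knockdown arrays, and fell by 1.22 ± 0.21. H2AZ1, a variant at promoters, fell by 0.74 ± 0.13, and its paralogue H2AZ2 stood at -0.39 ± 0.10 (adjusted p = 0.151). The other 6 lay between -0.23 for H1-10 and 0.10 for MACROH2A2. Probe sets of histone genes may share signal, H3-3B with H3-5 above all. After a further quantile normalization none of the 57 and none of the 10 was called, and with a trended robust spread 4 and 1 were.

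**Figure D3:**
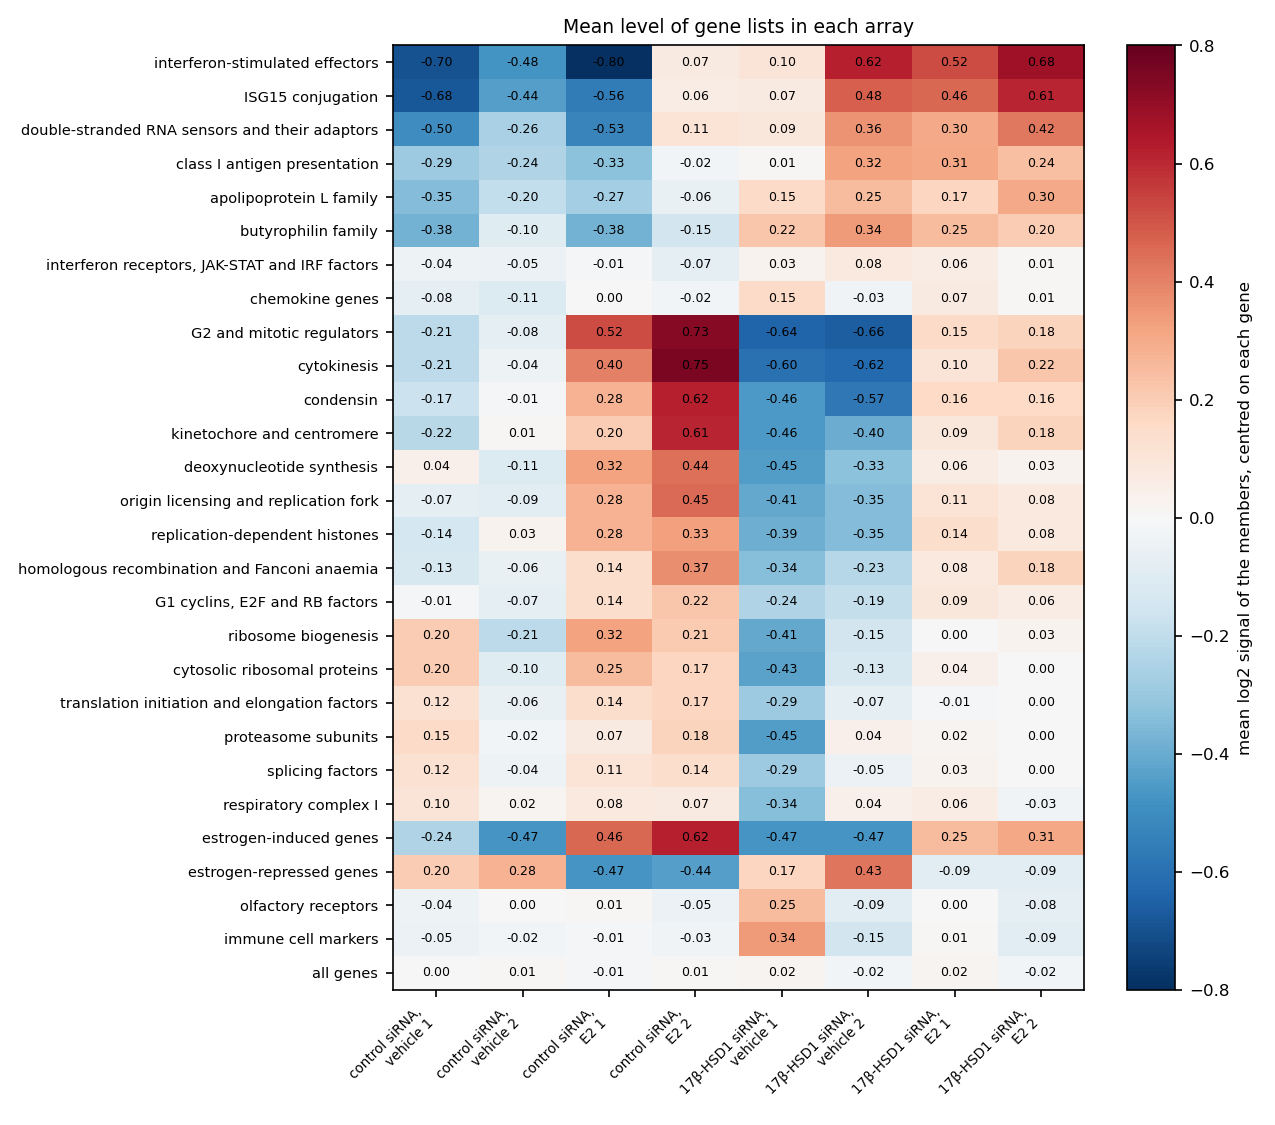
Mean log2 signal of the members of 27 gene lists and of all genes in each array, each gene centred on its mean over the 8 arrays; colour runs from -0.8 to 0.8. Interferon-stimulated effectors stand at 0.07 in control siRNA, E2 replicate 2 and from 0.10 to 0.68 in the knockdown arrays, and G2 and mitotic regulators at -0.64 and -0.66 in knockdown with vehicle against -0.21 and -0.08 in control with vehicle.

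Other falls were single members of families without another call. Since 0.239% of all genes fell and 0.206% rose, the lack of a second call is not a result about these families. RCN2, an endoplasmic reticulum calcium-binding protein gene, had 10.80, 10.39, 10.44 and 10.35 in the controls and 8.40, 9.37, 9.11 and 9.28 in the knockdown arrays, a clear gap. It fell by 1.45 ± 0.19, and its CREC relatives SDF4 (0.16), RCN1 (0.12), CALU (0.11) and RCN3 (-0.08) were not called. HIPK3, a homeodomain-interacting kinase gene, had 10.45, 10.01, 10.27 and 9.99 and then 8.83, 9.24, 8.94 and 9.14, and fell by 1.14 ± 0.14. Its relatives HIPK2 (0.53 ± 0.16), HIPK1 (-0.27 ± 0.10) and HIPK4 (0.07 ± 0.13) were not called. CHUK, the gene of the IκB kinase α subunit, had 9.73, 9.29, 9.60 and 9.60 and then 8.30, 8.66, 8.41 and 8.64. It fell by 1.05 ± 0.13 and was the only 1 of 24 NF-κB pathway genes called. The partner kinase gene IKBKB (0.03 ± 0.10) and the scaffold gene IKBKG (0.05 ± 0.11), which were picked with their values known, were not called.

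AHNAK2, a giant scaffold protein gene, fell by 1.05 ± 0.13, from 7.81, 7.83, 8.25 and 8.31 to 6.56, 7.16, 7.12 and 7.18. RNF11, an adaptor of ubiquitin ligases and 1 of 75 genes named RNF, fell by 0.88 ± 0.11, from 8.75, 8.59, 8.41 and 8.57 to 7.64, 7.92, 7.61 and 7.62. GSKIP, which binds GSK3β, fell by 1.04 ± 0.19 and was the only call among 30 genes of the WNT pathway and GSK3 partners. None of these 3 overlapped between the siRNAs.

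Rises outside the interferon lists were single members too, which with 0.206% of all genes called higher is again not a result about their families. LAMC1, the γ1 chain of laminin, had 9.46, 9.20, 8.84 and 9.17 in the controls and 10.20, 10.04, 10.02 and 10.02 in the knockdown arrays, and rose by 0.90 ± 0.12. The other 9 measured laminins lay between -0.04 for LAMA4 and 0.25 for LAMB4. AKAP6, an anchor of protein kinase A, had 7.80 and 8.44 (vehicle) and 6.57 and 6.91 (E2) and then 8.65, 8.71 (vehicle), 8.21 and 8.09 (E2). It rose by 0.99 ± 0.15, with 0.56 ± 0.21 in vehicle and 1.41 ± 0.21 in E2, and the test of that difference gave an adjusted p of 1. TIAM1, an activator of the GTPase RAC1, rose by 0.77 ± 0.11.

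Of the 82 called genes 20 belong to no list. The 8 that rose were the adaptor gene TOM1L2, the pseudogenes TAAR3P and HLA-L, the transcription factor gene UBP1, the presynaptic scaffold gene PCLO, THSD7A, the mucin gene MUC15 and SLITRK6, a neuronal membrane protein gene, by 0.65 to 1.34. SLITRK6 had 5.35 and 6.32 (vehicle) and 4.36 and 5.31 (E2) and then 6.93, 7.58 (vehicle), 6.05 and 6.15 (E2). The 12 that fell were changed by -0.92 to -0.56. They include HAUS2 of the microtubule-nucleating augmin complex, the nuclear lamina gene TMPO, PCLAF, a binding partner of PCNA, CBX5, the gene of heterochromatin protein HP1α, ANP32E, a chaperone of H2A.Z, and CDCA2, a mitotic phosphatase adaptor. The others were the translation regulator gene BZW1, the peroxisomal tether gene ACBD5, the actin bundler gene PLS1, BTBD1, SHCBP1 and LYZL2. CBX5 had 10.76, 10.82, 11.03 and 10.98 in the controls and 10.12, 10.30, 10.33 and 10.41 in the knockdown arrays, and TMPO 10.44, 10.30, 10.70 and 10.90 and then 9.52, 9.53, 10.19 and 10.17. Neither overlapped.

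Large groups of growth genes held negative changes without a single call. Of 55 ribosome biogenesis genes 54 had negative changes, 52 in both media, against 29.1% of all genes negative in both, and the median was -0.26. POLR1E, a subunit of RNA polymerase I, stood at -0.56 ± 0.13 and the nucleolar helicase gene DDX21 at -0.54 ± 0.13, at adjusted p of 0.108 and 0.138. Of 65 cytosolic ribosomal proteins 62 had negative changes, with a median of -0.25, led by RPL22 (-0.83 ± 0.19) and RPS3A (-0.49 ± 0.12). Medians were -0.17 for 52 genes named EIF or EEF, -0.16 for 62 splicing factors, -0.17 for 31 proteasome subunits, -0.15 for 73 mitochondrial ribosomal proteins and -0.13 for 33 subunits of respiratory complex I. Small nucleolar RNA genes, which guide the modification of ribosomal RNA, had a median of -0.10 over 176.

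These genes were bright, with median signals of 8.82 for ribosome biogenesis and 10.88 for cytosolic ribosomal proteins against 7.66 over all genes, and 1 array differed from the rest by brightness. Replicate 1 of 17β-HSD1 siRNA with vehicle had a mean correlation of 0.973 with the other arrays, against 0.981 to 0.988 for the rest. Its median signal relative to each gene's mean was 0.20 in the third decile of genes by brightness and -0.19 in the brightest decile, where the other 7 arrays lay between 0.00 and 0.10. Without it the medians were -0.20 for ribosome biogenesis, -0.17 for cytosolic ribosomal proteins, -0.13 for the EIF and EEF genes and -0.09 for splicing factors. They were -0.07 for mitochondrial ribosomal proteins, -0.04 for proteasome subunits and -0.02 for respiratory complex I. Without it the G2 and mitotic median was -0.51 and that of the interferon-stimulated effectors 1.05.

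**Figure D4:**
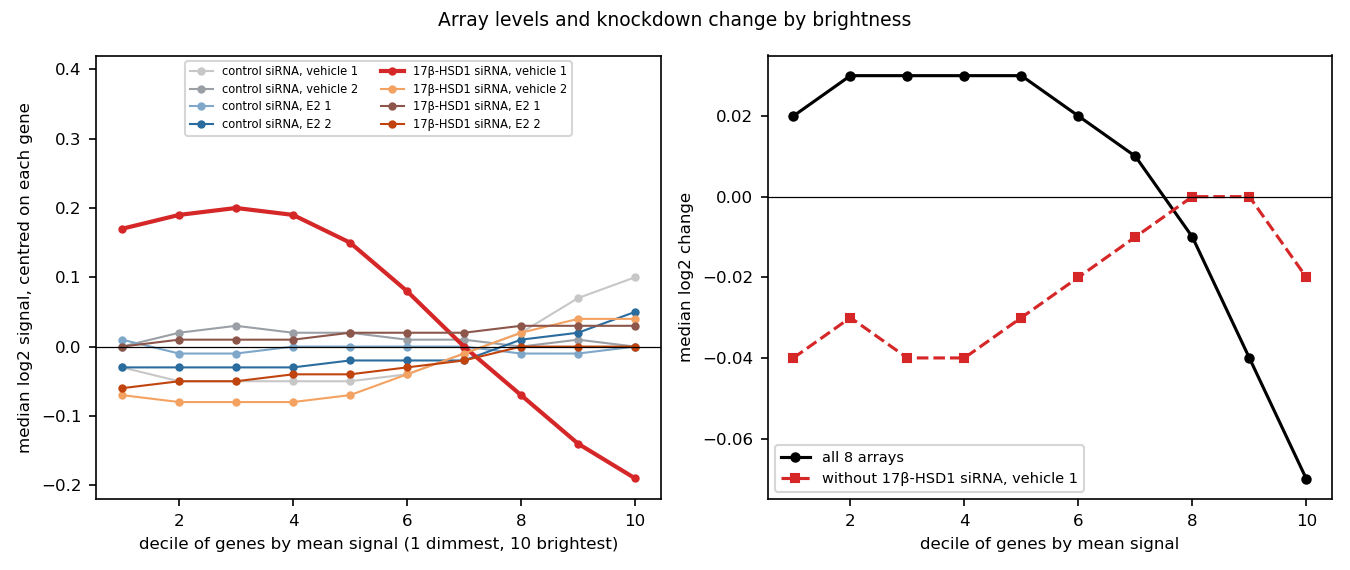
Left, median log2 signal in each array, centred on each gene, for deciles of the 18417 genes ordered by mean signal; right, median knockdown change per decile with all 8 arrays and without 17β-HSD1 siRNA, vehicle replicate 1. That array runs from 0.20 to -0.19, and the change in the brightest decile is -0.07 with it and -0.02 without it.

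Hormone lists gave 1 call. Of 36 estrogen-induced genes RBM24, an RNA-binding protein gene, fell by 0.78 ± 0.14, from 7.50 and 6.86 (vehicle) and 8.95 and 8.96 (E2) to 6.59, 6.68 (vehicle), 7.87 and 8.03 (E2). Its change was -0.55 ± 0.20 in vehicle and -1.01 ± 0.20 in E2. The list median was -0.15, with -0.03 in vehicle and -0.26 in E2, and was -0.06 without control siRNA, E2 replicate 2. That of 22 estrogen-repressed genes, none of them called, was 0.18, with 0.03 and 0.29, and was 0.28 without 17β-HSD1 siRNA, vehicle replicate 1. Both lists were chosen with earlier results of these data known, and the difference between media was not tested for a list. The estrogen receptor gene ESR1 stood at -0.32 ± 0.13 (adjusted p = 0.463) and the receptor target genes GREB1 and PGR, named after their values were seen, at 0.09 ± 0.12 and -0.02 ± 0.13. None was called among 38 nuclear receptors, 19 coregulators, 14 androgen-responsive genes or 16 genes of steroid sulfation, conversion and aromatisation.

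Stress, metabolic and structural families held no call either. These were 32 endoplasmic reticulum folding and stress genes (median 0.06), 33 autophagy and lysosome genes (0.06), 19 cholesterol synthesis genes (-0.12), 34 glycolysis and hypoxia genes (-0.15) and 13 RNA interference genes (-0.05). The same held for 48 keratins, 28 tight junction genes, 43 collagens, 480 genes named ZNF and 341 olfactory receptors, with medians from 0.02 to 0.08. In the fit of all 21214 probe sets, 2003 had an unadjusted p below 0.05.

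**Figure D5:**
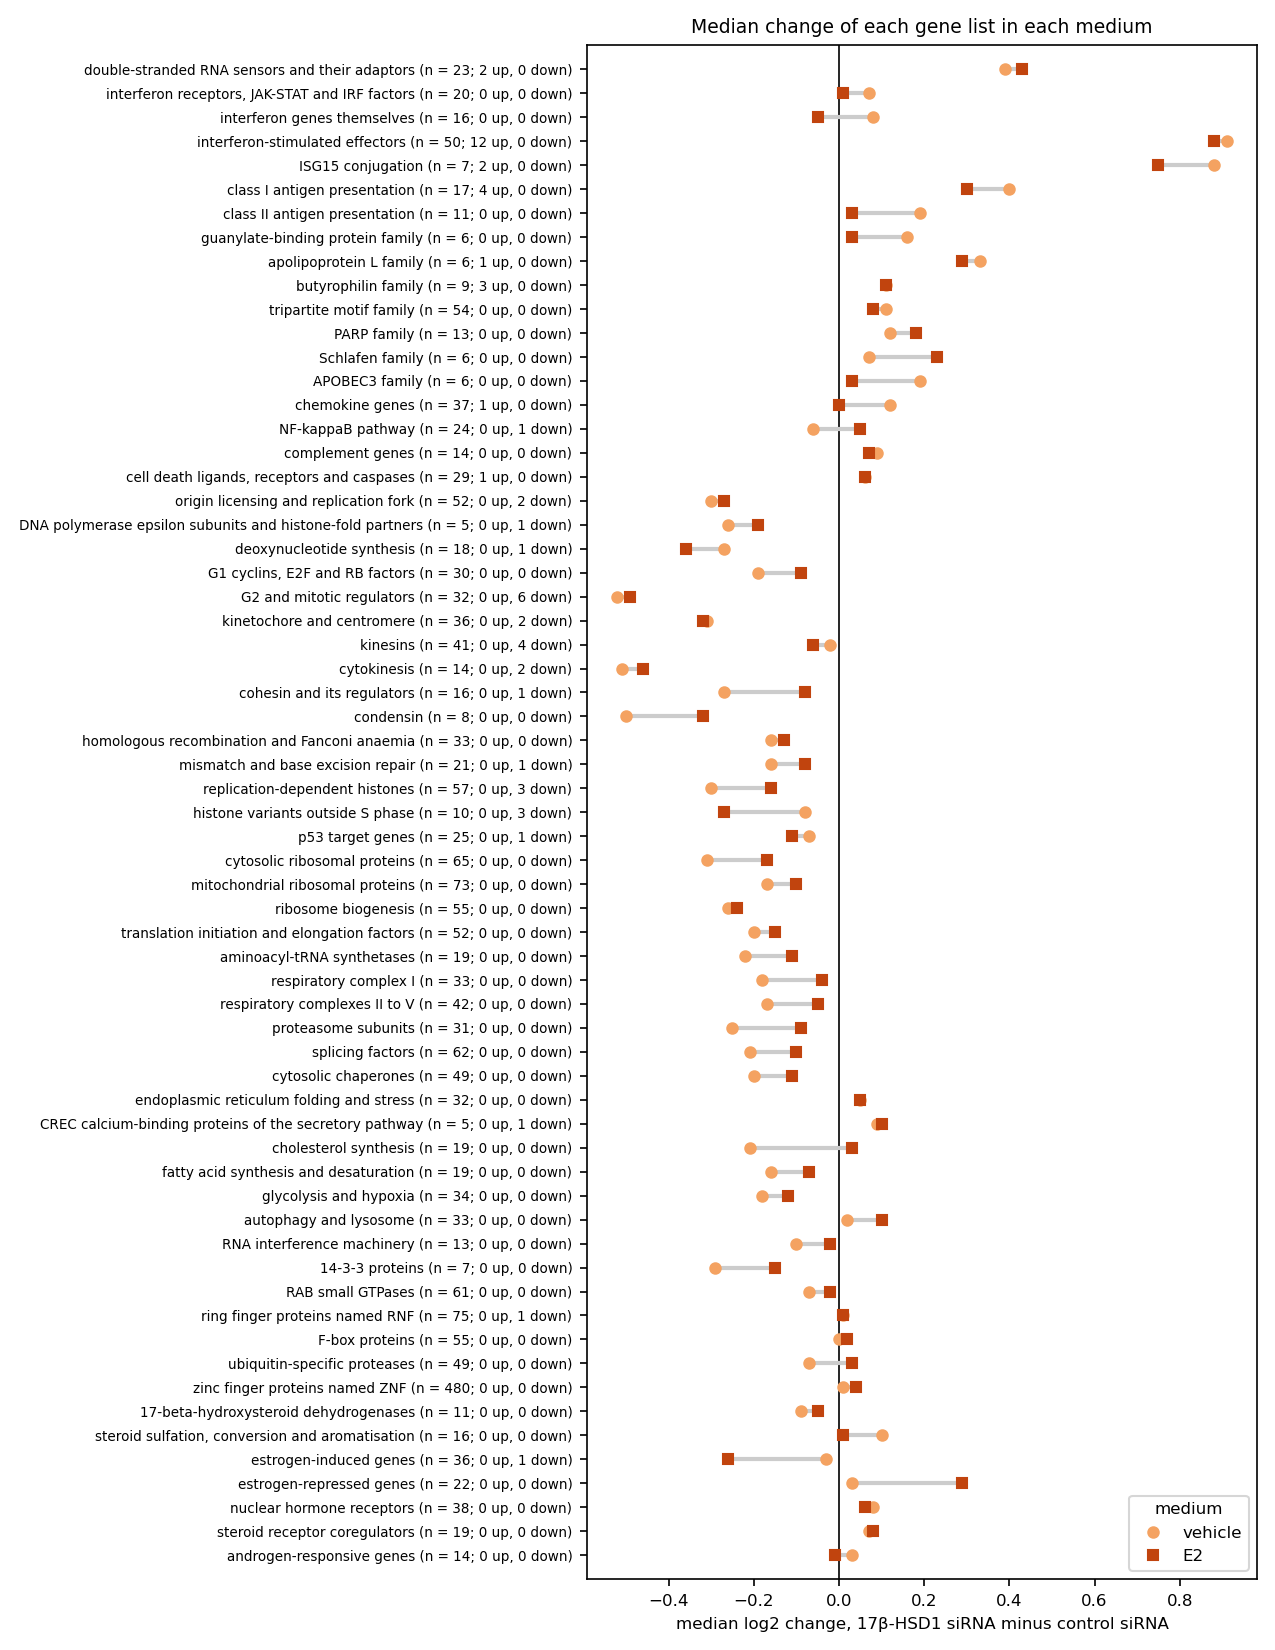
Median log2 change of gene lists in vehicle (circles) and E2 (squares), with the number measured and the numbers that rose and fell in the averaged comparison. Lists of structural, signalling and cell type marker genes are not drawn. Interferon-stimulated effectors stand at 0.91 and 0.88 and G2 and mitotic regulators at -0.52 and -0.49, while most other lists drawn lie between -0.36 and 0.43.

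Within a single medium no probe set passed, with the lowest adjusted p at 0.181 in vehicle and 0.225 in E2. Unadjusted p-values below 0.05 numbered 1157 and 977, and 37 and 45 probe sets were called with the culture block. The smallest p in vehicle belonged to RCN2 (-1.71 ± 0.26) and in E2 to POLE3 (-1.06 ± 0.16). The difference between media called 0 probe sets in limma, with and without the block, and 140 had an unadjusted p below 0.05, which does not show that the media gave like changes. The 2 media share no arrays, but arrays of one number were taken to come from the same culture experiment, so the list changes by medium may not be independent of each other.

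Markers of cell types were read for their change alone, since levels of different probe sets cannot be set against each other, so the signals do not check the labelled cell type. The changes ran from -0.36 to 0.39 for 19 luminal, from -0.02 to 0.44 for 10 basal, from -0.12 to 0.48 for 12 fibroblast, from -0.08 to 0.23 for 15 immune and from -0.15 to 0.13 for 9 endothelial markers. None of these 65 markers was called in either direction. The immune markers, centred on each gene, stood at 0.34 in 17β-HSD1 siRNA, vehicle replicate 1 and between -0.15 and 0.01 in the other 7 arrays, and dim genes as a whole also stood high in that array. Their part in the interferon genes was not tested beyond these values.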

How the data were processed

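Total RNA of T47D cells was hybridised to Affymetrix Human Gene 1.0 ST arrays, 8 in all, per the labels' protocols. The deposited values are log2 signals per probe set, read as log2 from their range of 2.42 to 15.16. How the authors summarised and normalized these signals is not given in the sources used here. No further scaling was applied. Array medians lay between 7.249 and 7.37.

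Names come from the annotation of the platform, with gene identifiers checked against the RefSeq table of GRCh38.p14, where 19429 of 19460 with 1 symbol matched. A further 1754 held several symbols and 12083 none. The 21214 with at least 1 symbol were fitted in limma 3.58.1 (R 4.3.3) by lmFit and eBayes with a coefficient for each of the 4 groups and 4 residual degrees of freedom. Contrasts were the knockdown averaged over media, in each medium, and its difference between media. Adjusted p-values and SEs are from this fit unless another fit or the block is named.

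The comparison and all 91 gene lists were chosen with earlier results of these data known. Of 1136 list entries, 1038 were measured, and lists are described by counts and medians without a test. Named are HSD17B1, called genes, in each list the 4 members of smallest p, all members of families of up to 12, and the smallest p within a medium; other genes are marked. A result given only with the block was not counted as a call.

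The labels number the arrays of a group 1 and 2 and state 2 independent cultures, so the number was taken as the culture. Deviations of same-numbered arrays from their group means correlated between -0.2 and 0.44 over 6 pairs of groups. The fit was tested on simulated data. Promoter windows were searched with Python 3.11.15.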

Additional observations from a re-analysis of the deposited data

How the results depend on the processing

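None of the 82 called genes changed sign under the 15 alternatives, of which the filter on dim probe sets kept 77 of them. Only the further quantile normalization could have changed a sign. Leaving out 1 array cannot reverse genes whose arrays lay apart in each medium, and the other fits keep the averaged change. The number of probe sets that rose and fell was 51 and 46. It was 0 and 0 over all 33297 probe sets, unnamed ones included, 36 and 26 after a further quantile normalization, 69 and 88 in an additive model, and 154 and 131 with the replicate block. A filter on dim probe sets (47 and 54), a trended robust spread (43 and 50) and 1 probe set per gene (38 and 44) stayed within 1.5 times. In the fit of all probe sets the lowest limma adjusted p was 0.0734, with 2525 unadjusted p-values below 0.05. Leaving out each array in turn, 0 to 113 rose and 0 to 145 fell. The 0 came without replicate 1 or 2 of 17β-HSD1 siRNA with E2 (1274 and 1380 unadjusted), 113 and 27 without control siRNA, E2 replicate 2, 41 and 145 without 17β-HSD1 siRNA, vehicle replicate 2, and 21 and 8 without control siRNA, vehicle replicate 1. The cause was not tested.

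With the replicate block 37 probe sets were called in vehicle and 45 in E2, and leaving out 1 array gave 0 to 30 and 0 to 65. With the numbers of control siRNA, vehicle swapped in the block, an alternative chosen after seeing a correlation of -0.2 between same-numbered vehicle arrays, 75 rose and 95 fell, and limma called 0 in vehicle and 0 in E2 (1620 and 1226 unadjusted p-values below 0.05). The difference between media stayed at 0 calls in every alternative in which it was fitted. HSD17B1 ranged from -0.73 to -0.38 and was not called under any. Leaving out 1 array, the median change ran from 0.61 to 1.17 for interferon-stimulated effectors, from -0.60 to -0.46 for G2 and mitotic regulators and from -0.33 to -0.17 for ribosome biogenesis. Of 1455 list medians under alternatives 60 moved by more than 1 SD between replicates. All guanylate-binding protein genes fall under the filter on dim probe sets, so that list has no value there. With 2 arrays per group the number of arrays limits the precision.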
